A study of Mus musculus with 12 samples.

Results

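The replication-dependent histone genes were taken as all genes whose symbol begins with *Hist1h*, *Hist2h*, *Hist3h* or *Hist4h*. This rule found 68 of the 49585 genes in the count files. Names were taken from GENCODE release M21, which holds 70 such genes, and the other 2 were not analysed here. By histone class, 6 of the 68 genes encode linker histone H1, 20 encode H2A, 17 encode H2B, 12 encode H3 and 13 encode H4. Among them, 54 carry a *Hist1* name, 10 a *Hist2* name, 3 a *Hist3* name and 1 the name *Hist4h4*, and 3 are annotated as pseudogenes. Genes with a *Hist1* name lie on mouse chromosome 13, those with a *Hist2* name on chromosome 3 and those with a *Hist3* name on chromosome 11.

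Replication-dependent histone genes supply the histones that package newly made DNA in S phase. Their mRNAs usually have no introns and, unlike other mRNAs, end without a poly(A) tail, just after a short stem-loop that is bound by the stem-loop binding protein Slbp. A part of them can also be made as longer, polyadenylated transcripts, for example in cells that leave the cycle. Smart-seq2, the protocol used here, starts from an oligo(dT) primer and therefore reads polyadenylated RNA.

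RNA-seq was analysed for hematopoietic stem cells (HSCs) of 6 WT and 6 Pon2-/- mice, all on the C57BL/6J background and 10 to 14 weeks old. The Pon2-/- mice carry a β-geo gene trap, flanked by loxP sites, in intron 2 of the paraoxonase gene *Pon2*. WT mice came from a commercial breeder, and the labels do not call them littermates. Cells were sorted from bone marrow as negative for lineage markers and CD135 and positive for Sca1, c-Kit and CD150, a gate that holds long-term HSCs and a multipotent progenitor population. Per mouse, 8 wells with 10 cells each were sequenced, and the counts are given per mouse. Each file holds 12967791 to 24228280 reads counted on genes, and the histone genes took 0.0818% to 0.229% of them. All 8 HSC marker genes examined (*Kit*, *Ly6a*, *Slamf1*, *Procr*, *Mecom*, *Hlf*, *Fgd5* and *Cd34*) were expressed, with 34.4 to 447 CPM (counts per 1000000 counts) on average. *Cd3e* and *Cd8a* had no count in any sample, while *Flt3*, which encodes CD135, had 39.4 CPM on average. *Pon2* itself had 55.8 to 200.2 CPM in WT HSCs and 1.15 to 32.8 CPM in Pon2-/- HSCs, without overlap. Even so, the edgeR test described below did not call it (log2 fold change -2.13, adjusted p = 0.586). A gene not called by that test can therefore still differ.

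Which genes carry the stem-loop was read from the transcript sequences of GENCODE release M21 on GRCm38. The motif searched for was GG, any 2 bases, CTTTT, any base, AG, any 2 bases and CC. It was found on the transcript strand of 42 of the 68 histone genes (61.8%) and of 89 of 55450 annotated genes (0.161%). On the opposite strand it was found in 42 genes (0.0757%). The 26 histone genes without the motif have exon models with a median length of 408 bases, and the end of the mRNA may lie outside the shorter ones. No match says only that these letters are not in the annotated transcript. The sequences below show the stem-loop (capitals) with its neighbouring bases, 5′ to 3′, for genes whose counts are described further on.
Hist1h4d: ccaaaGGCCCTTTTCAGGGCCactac
Hist1h4m: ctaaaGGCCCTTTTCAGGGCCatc
Hist1h4n: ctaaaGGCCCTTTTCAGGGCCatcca
Hist1h4i: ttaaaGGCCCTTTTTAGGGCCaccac
Hist1h1e: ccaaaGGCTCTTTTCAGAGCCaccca
Hist1h2ae: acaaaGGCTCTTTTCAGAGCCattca
Hist2h2ac: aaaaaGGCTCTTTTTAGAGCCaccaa
Hist3h2ba: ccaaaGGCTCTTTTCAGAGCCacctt

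The stem differed between histone classes. The 11 H4 genes with the motif carried 3 forms, none of which was found in another class, and 7 of them shared the form of *Hist1h4d*. The form of *Hist1h1e* was shared by 24 genes of the classes H1, H2A, H2B and H3 and by no H4 gene. A form with an A in the loop was found in 6 genes of the classes H1, H2B and H3.

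The annotated transcripts of 21 of the 42 genes with the motif go on for more than 100 bases after it, while those of the other 21 end within 100 bases. Annotated sequence after the stem-loop was 770 bases long in *Hist1h4d*, 1153 bases in *Hist1h1e* and 3 bases in *Hist1h4m*. These lengths are those of release M21, and *Hist1h4d* and *Hist1h1e* are among the 22 histone genes whose version differs in release M12, on which the reads were counted. The annotated *Hist1h4m* transcript thus ends directly after its stem-loop.

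A further property that bears on the counts is how much of each transcript is found nowhere else. STAR counts a read for a gene only when it maps to a single place, so that reads from stretches shared by several histone genes are lost. Each transcript was therefore split into all windows of 50 bases, and a window was called unique if no transcript of another gene held it on either strand. Genes annotated over the same place were counted as other genes too. The median share of unique windows was 98.9% for H1 genes, 60.5% for H4 genes, 50.3% for H2B genes, 38.0% for H3 genes and 26.8% for H2A genes. In *Hist1h4m* only 36 windows, or 10.2%, were unique. Its nearest relative is *Hist1h4n*, whose transcript holds all 402 bases of *Hist1h4m* with 1 difference, G36A, counted from the 5′ end of the *Hist1h4m* transcript with the base of *Hist1h4m* first. All 36 unique windows of *Hist1h4m* cover this position, which lies just before the start codon. The stretches below show the differing base in capitals.
Hist1h4m: tcttcGtcatgtctggtcgtggcaaaggag
Hist1h4n: tcttcAtcatgtctggtcgtggcaaaggag

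Both genes lie on chromosome 13 (GRCm38), *Hist1h4m* on the plus strand from 21811746 to 21812147 and *Hist1h4n* on the minus strand from 21831767 to 21832196, with 19619 bases between them. The flanking genes repeat in mirrored order. *Hist1h2ao* and *Hist1h2bq* lie next to *Hist1h4m*, and *Hist1h2ap* and *Hist1h2br* lie next to *Hist1h4n*. A transcript of *Hist1h2bq* is found whole, with 0 differences over 381 bases, within *Hist1h2br*.

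Of the 68 histone genes, 59 had at least 1 count and 26 had a count in all 12 samples. At least 1 CPM in at least 6 samples was reached by 37 genes. The levels were unequal. The first 4 genes held 67.7% of the summed CPM of all members and the first 12 held 88.2%. CPM were scaled with TMM factors and are not divided by transcript length.

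*Hist1h4d*, which encodes histone H4, had the highest level. It had 329 CPM in the lowest WT sample, 465 at the median and 579 in the highest, and 302, 390 and 748 CPM in Pon2-/- HSCs. The ranges overlapped, with 2 Pon2-/- samples above and 1 below all WT samples, and the fold change on the log2 scale was 0.00 (standard error 0.22). *Hist1h4d* alone made up 28.9% to 44.4% of the summed CPM of all histone genes in a sample. Per kilobase of exon it also came first, with 410 CPM per kilobase on average, followed by *Hist1h1b* with 223 and *Hist1h2ae* with 185. The exon lengths are also those of release M21, and the version of *Hist1h2ae* differs between the releases as well.

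**Figure D1:**
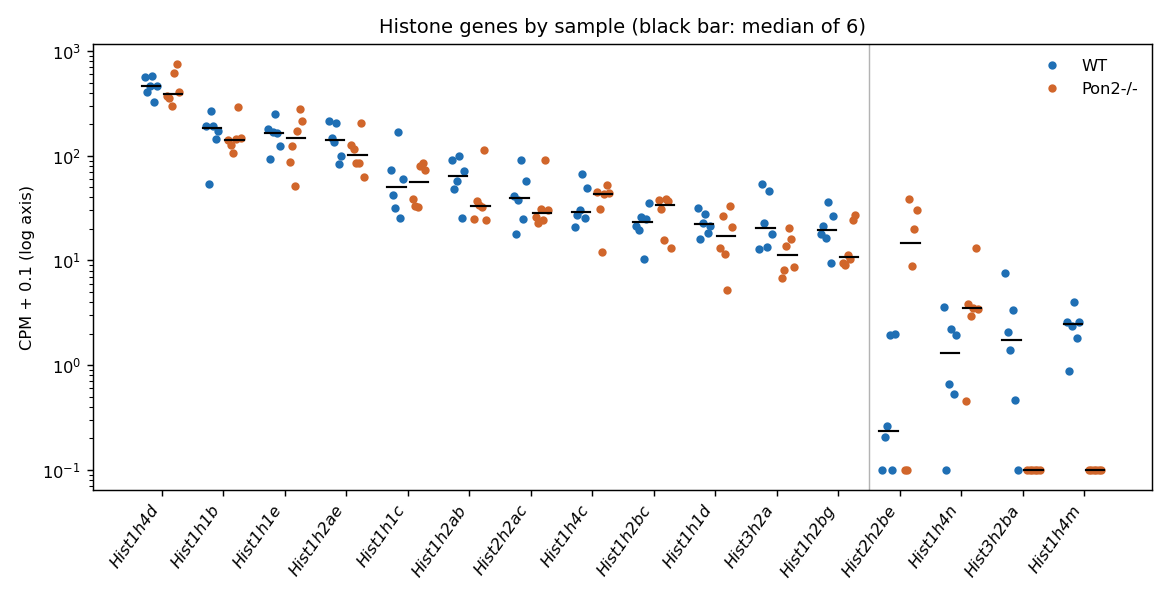
CPM + 0.1 on a log axis for the 12 histone genes with the highest mean CPM (left of the grey line) and for 4 further genes, with 1 point per sample and a black bar at the median of 6 samples. The genotypes overlap in each of the 12 genes on the left, while *Hist1h4m* lies at 0 CPM (drawn at 0.1) in all 6 Pon2-/- samples and above it in all 6 WT samples.

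The second H4 gene was *Hist1h4c*. It had 20.8 CPM in the lowest WT sample, 28.7 at the median and 67.0 in the highest, and 11.998, 43.5 and 52.4 CPM in Pon2-/- HSCs. Its genotypes overlapped as well, with a log2 fold change of 0.05 (standard error 0.44). *Hist1h4i*, shown above for its T in the loop, had 18.1 CPM on average.

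The linker histone genes, whose products bind between nucleosomes, held 3 of the 5 highest levels in CPM. *Hist1h1b* had 53.9, 183 and 266 CPM in WT HSCs (lowest, median and highest sample) and 105, 143 and 295 CPM in Pon2-/- HSCs. *Hist1h1e* had 92.0, 166 and 252 CPM in WT HSCs and 51.9, 148 and 279 CPM in Pon2-/- HSCs. Both genes overlapped between genotypes. *Hist1h1c* had 25.4, 50.7 and 169.8 CPM in WT HSCs and 32.3, 55.9 and 85.8 CPM in Pon2-/- HSCs. *Hist1h1d* had 15.8, 22.0 and 31.6 CPM in WT HSCs and 5.15, 16.9 and 33.3 CPM in Pon2-/- HSCs. The ranges of these genes overlapped too. *Hist1h1a* had 12.9 CPM on average. The only H1 gene without a count was *Hist1h1t*, the testis-specific linker histone, although 100% of its windows are unique. Part of the exons of *Hist1h1e* overlaps an exon of *Hist1h2be* on the same strand, so that reads from the overlap cannot be assigned to either gene.

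Among the H2A genes, whose products pair with H2B in the nucleosome, *Hist1h2ae* had 82.9, 141 and 213 CPM in WT HSCs and 62.4, 101 and 206 CPM in Pon2-/- HSCs. *Hist1h2ab* had 25.2, 63.8 and 100.2 CPM in WT HSCs and 24.1, 33.0 and 113 CPM in Pon2-/- HSCs. In *Hist1h2ab*, 5 of the 6 Pon2-/- samples lay at 36.7 CPM or lower and replicate 5 was the highest of all 12. *Hist2h2ac* on chromosome 3 had 17.9, 39.1 and 90.2 CPM in WT HSCs and 22.6, 28.2 and 90.4 CPM in Pon2-/- HSCs. *Hist3h2a* on chromosome 11 had 12.9, 20.1 and 54.0 CPM in WT HSCs and 6.70, 11.1 and 20.5 CPM in Pon2-/- HSCs. The upper part of the WT range of *Hist3h2a* was free of Pon2-/- samples but the ranges overlapped. Its log2 fold change of -1.18 (standard error 0.60) did not pass the test (edgeR, unadjusted p = 0.0689, adjusted p = 1.0), and an exon of it overlaps *Trim17*. Exons of 26 of the 68 histone genes overlap another annotated gene.

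The H2B genes, which supply the partner of H2A, held 2 places among the 12 highest levels. *Hist1h2bc* had 10.1, 22.9 and 35.4 CPM in WT HSCs and 13.05, 34.0 and 38.7 CPM in Pon2-/- HSCs. *Hist1h2bg* had 9.42, 19.5 and 35.9 CPM in WT HSCs and 8.95, 10.7 and 26.9 CPM in Pon2-/- HSCs. Neither gene separated the genotypes. None of the H3 genes was among the first 12, and the highest of them was *Hist1h3c* with 7.74 CPM on average.

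Summed over all histone genes, WT HSCs had 1424 ± 368 CPM (SD, n = 6) and Pon2-/- HSCs had 1299 ± 502 CPM (SD, n = 6). The range was 1035 to 2005 CPM in WT samples and 837 to 2251 CPM in Pon2-/- samples. The ratio of Pon2-/- to WT was 0.912, and it lay between 0.778 and 0.993 when each sample was left out in turn. H4 genes made up 40.6% of the sum, H1 genes 30.8%, H2A genes 19.1%, H2B genes 7.50% and H3 genes 1.87%. H3 genes had 31.6 ± 17.0 CPM in WT samples and 19.3 ± 14.2 CPM in Pon2-/- samples (SD, n = 6 each). H2A genes had 303 ± 87.7 CPM in WT samples and 218 ± 116 CPM in Pon2-/- samples (SD, n = 6 each). H1, H2B and H4 sums differed less, with ratios of 0.922, 0.985 and 1.01. All 5 class sums overlapped between the genotypes, and sums were described and not tested.

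**Figure D2:**
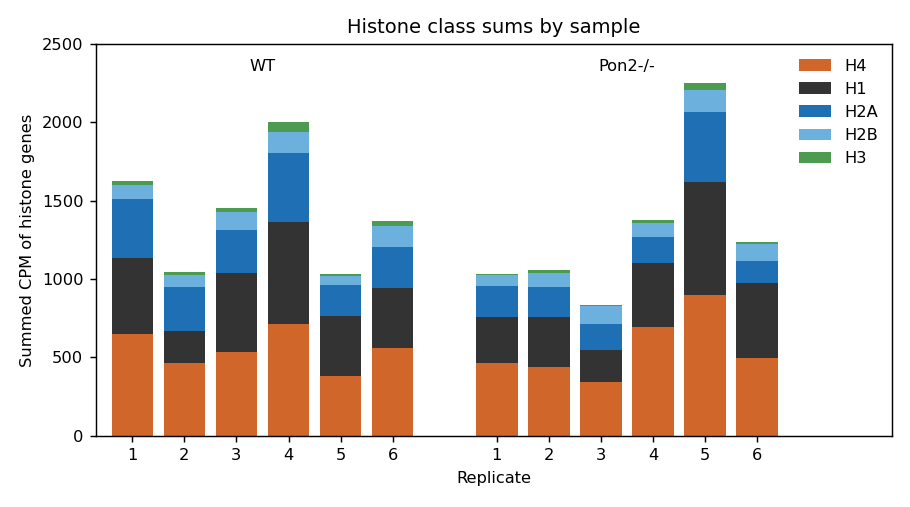
Summed CPM of the 68 histone genes in each sample, stacked by histone class, with WT replicates on the left and Pon2-/- replicates on the right. H4 and H1 genes hold the largest parts in most samples, and Pon2-/- replicate 5, with 2251 CPM, and WT replicate 4, with 2005 CPM, have the highest sums.

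Which histone genes were read was also set beside the length of annotated sequence after the stem-loop. The median of the mean CPM was 3.06 for the 21 genes with more than 100 bases after the motif, 1.58 for the 21 genes with up to 100 bases and 0.772 for the 26 genes without the motif. Of the 12 highest genes, 10 had the motif and 8 had more than 100 bases after it. Per kilobase of exon the order of the first 2 groups turned, with medians of 2.43, 3.06 and 1.71 CPM per kilobase. The 3 groups also differed in sequence shared with other genes, as the median share of unique windows was 75.4%, 34.2% and 22.8%. Their separate parts in the counts cannot be told apart here. The grouping rests on the models of release M21 and was not repeated on those counted.

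The genes without counts fell mostly among those with a low share of unique windows. Of the 9 histone genes with 0 counts in every sample, *Hist2h2aa1*, *Hist2h2aa2*, *Hist2h3c1*, *Hist2h3b* and *Hist2h2bb* have no unique window at all. They are the only 5 histone genes without such a window. Exons of all 5 overlap another annotated gene, and *Gm20628* alone holds all windows of *Hist2h3b* and of *Hist2h2bb*. Windows shared with an overlapping gene need not lie at a second place in the genome. For these 5 genes, no count does not show that the gene is not transcribed. *Hist1h2bq* and *Hist1h2br* have 2.68% and 11.3% unique windows, which are 54 and 250 windows of their long models. *Hist1h4m*, with 36 unique windows, had 245 counts. Whether *Hist1h2bq* and *Hist1h2br* are transcribed was not tested. The last 2 of the 9 genes are *Hist1h1t* and *Hist1h2aa*, with 100% and 76.2% unique windows. *Hist1h2ba*, with 61.8%, had 3 counts in all 12 samples together. *Hist1h2aa* and *Hist1h2ba* encode the H2A and H2B of the male germ line. A count of 0 over all samples allows up to 0.0135 CPM, a limit of 3 counts that covers counting error only, since PCR copies of a molecule are read more than once. Across the 19 genes with less than 15% unique windows, the highest mean was 9.71 CPM, in *Hist1h2bn*, whereas the 12 highest genes had 42.0% to 100% unique windows.

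**Figure D3:**
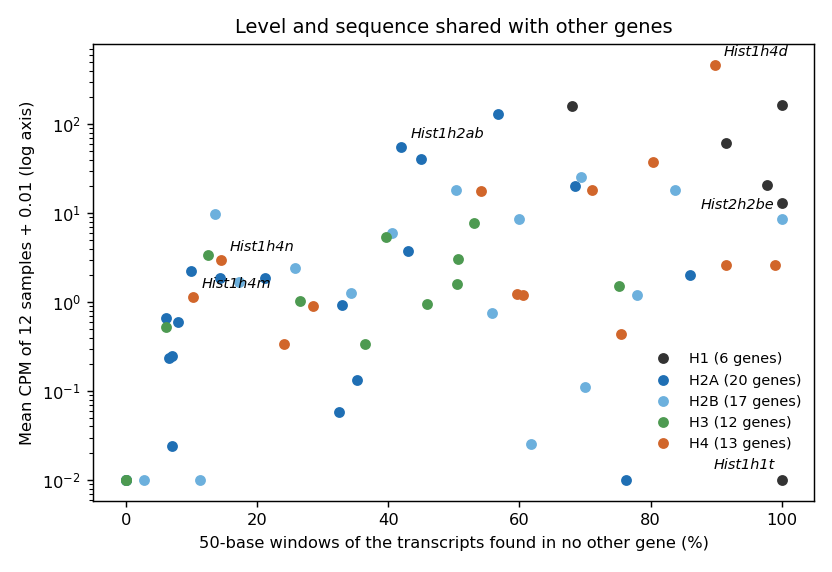
Mean CPM of the 12 samples plus 0.01 on a log axis against the share of 50-base windows found in no other gene's transcripts, with 1 point per histone gene and colours for the 5 classes. The 5 genes without a unique window coincide at the lower left at 0 CPM (drawn at 0.01), *Hist1h4m* and *Hist1h4n* lie at 10.2% and 14.4%, and *Hist1h1t* lies at 0 CPM with 100%.

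Pon2-/- and WT HSCs were then compared gene by gene with the quasi-likelihood test of edgeR. P-values were adjusted by Benjamini-Hochberg over all 11848 genes that passed the filter on low counts, 42 histone genes among them. A gene was called when its adjusted p was below 0.05 and its change was larger than 1 on the log2 scale. This held for 24 genes, or 0.203% of those tested, with 0.076% lower in Pon2-/- HSCs. Of the 42 histone genes tested, 1 was called, *Hist1h4m*, which was lower. Among the other histone genes the smallest adjusted p was 1.0. An unadjusted p below 0.05 was found for 2 histone genes, *Hist1h4m* and *Hist2h2be*, compared with 3.13% of all tested genes. The log2 fold change was below 0 for 29 of the 42 histone genes (69.0%) and for 50.8% of all tested genes, with medians of -0.24 and -0.01. The other 26 histone genes were not tested, 9 without a count and 17 with too few. The biological coefficient of variation was 99.2% over all genes, and the coefficient of variation between the 12 samples ranged from 28.6% to 160.5% for the tested histone genes.

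**Figure D4:**
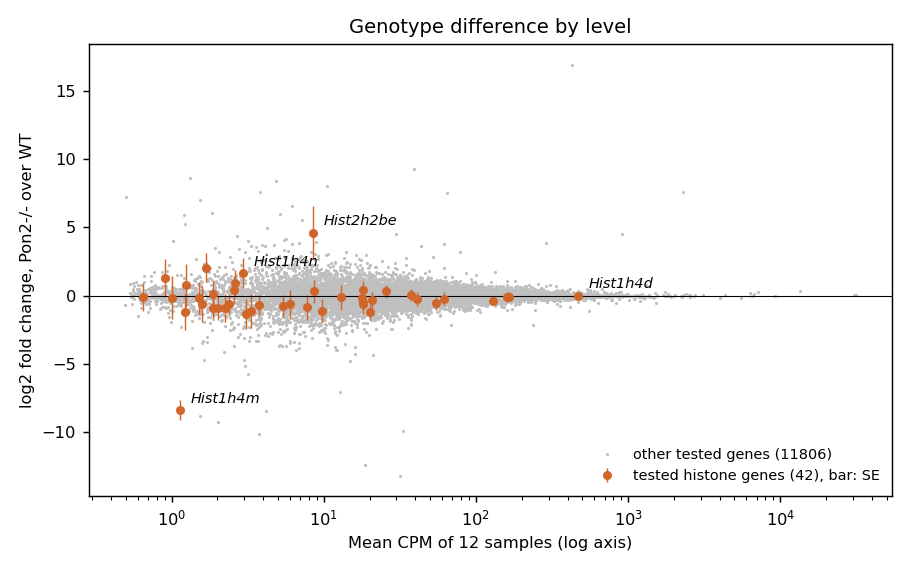
Log2 fold change of Pon2-/- over WT against the mean CPM of 12 samples on a log axis, with the 42 tested histone genes as orange points with standard errors and all other tested genes in grey. The other histone genes lie among the grey points on both sides of 0, *Hist1h4m* lies at -8.40 and *Hist2h2be* at 4.62.

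*Hist1h4m* (ENSMUSG00000069306.5), an H4 gene, had 59, 15, 56, 50, 24 and 41 counts in WT replicates 1 to 6 and 0 counts in each Pon2-/- replicate. All WT samples lay above all Pon2-/- samples. It was the only histone gene without overlap of the genotypes, which was found for 74 of all tested genes (0.625%), with 0.245% lower in Pon2-/- HSCs. The level in WT was 2.27 ± 1.02 CPM (SD, n = 6), and per kilobase of exon the mean over all 12 samples was 2.82 CPM, compared with 410 CPM for *Hist1h4d*. The log2 fold change of -8.40 (SE 0.74, edgeR adjusted p = 0.00253) depends on the prior count, as no read was counted in Pon2-/- HSCs. *Hist1h4m* was chosen with its difference already known from earlier results of these data. Over the pooled samples the WT level was 82.0-fold above the limit of 3 counts over the 6 Pon2-/- samples. This limit covers counting error only and not the spread between mice. The exact permutation test of log2 CPM gave the smallest p that it can give, 0.00216, which was 0.347 after adjustment over all tested genes. The call was lost with no filter beyond 1 read (edgeR adjusted p = 0.281), and kept with DESeq2 (adjusted p = 1.50e-09) and limma voom with sample quality weights (adjusted p = 0.0105).

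*Hist1h4n* (ENSMUSG00000069305.3), the gene that differs from *Hist1h4m* by a single base, was counted in both genotypes. It had 83, 0, 14, 27, 6 and 30 counts in WT replicates and 6, 87, 51, 50, 286 and 56 counts in Pon2-/- replicates. The Pon2-/- samples were mostly higher but the ranges overlapped. The mean was 1.40 ± 1.32 CPM in WT samples and 4.47 ± 4.42 CPM in Pon2-/- samples (SD, n = 6 each), and the log2 fold change was 1.67 (SE 1.07, edgeR unadjusted p = 0.142, adjusted p = 1.0). *Hist1h4m* therefore took 41.5% to 100% of the reads counted on both genes in WT samples and 0% in each Pon2-/- sample.

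When the counts of both genes were added up, the genotypes overlapped widely. The sums were 142, 15, 70, 77, 30 and 71 counts in WT replicates and 6, 87, 51, 50, 286 and 56 counts in Pon2-/- replicates. In CPM this was 3.67 ± 2.12 in WT samples and 4.47 ± 4.42 in Pon2-/- samples (SD, n = 6 each, exact permutation test, two-sided, of log2(CPM + 0.1), p = 0.959). With both counted as 1 gene, edgeR gave 0.29 on the log2 scale (SE 0.83, adjusted p = 1.0). This merged test was added after the values had been seen. Within the annotated transcripts, *Hist1h4m* can be told from *Hist1h4n* by its differing base alone, and the counts do not show which base the RNA of each mouse carried there.

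**Figure D5:**
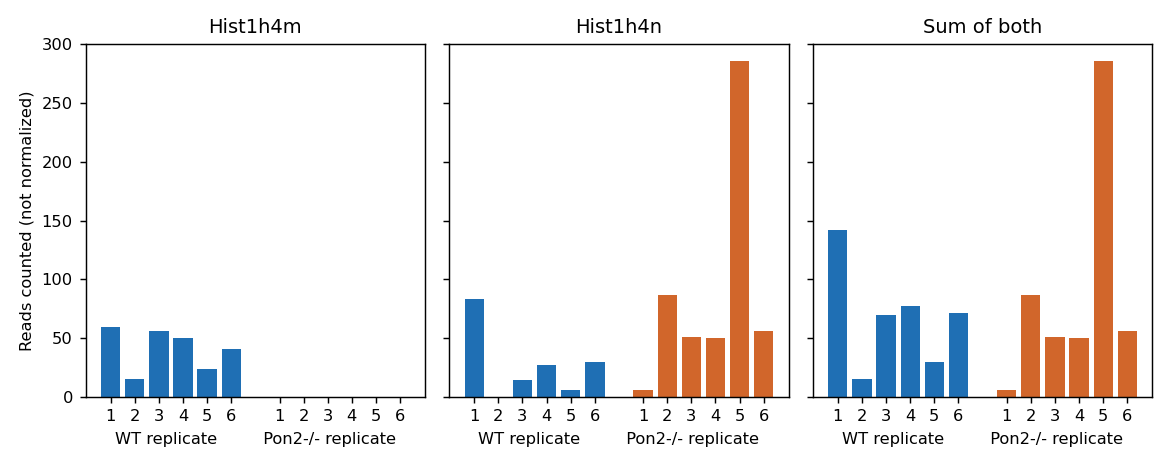
Reads counted per sample on *Hist1h4m*, on *Hist1h4n* and on both together, with WT replicates in blue and Pon2-/- replicates in orange and bars starting at 0. *Hist1h4m* has no read in any Pon2-/- sample, *Hist1h4n* has reads in 5 of 6 WT and 6 of 6 Pon2-/- samples, and the sums overlap.

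The neighbours of the pair were hardly read. *Hist1h2ao*, next to *Hist1h4m*, had 47 counts over the 12 samples, with 1 to 11 counts per WT sample and 1 to 5 per Pon2-/- sample. *Hist1h2ap*, next to *Hist1h4n*, had 4 counts in 3 samples, and *Hist1h2bq* and *Hist1h2br* had none. Their shares of unique windows were 6.50%, 6.93%, 2.68% and 11.3%. Too few reads were counted on these genes for the edgeR test, so a difference between the genotypes could not be judged.

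DESeq2 with its default settings gave an adjusted p for 56 histone genes and called 2 of them, against 1.79% of 16998 genes. These were *Hist1h4m* and *Hist3h2ba*. *Hist3h2ba* (ENSMUSG00000056895.4) encodes an H2B and lies on chromosome 11 from 58948920 to 58949533. It had 179, 38, 32, 42, 5 and 0 counts in WT replicates and 0 counts in each Pon2-/- replicate. The genotypes met at 0, since WT replicate 6 had no count. The mean was 2.40 ± 2.78 CPM in WT HSCs (SD, n = 6). Over the pooled samples the WT level was 99.0-fold above the limit of 3 counts in Pon2-/- HSCs. Without WT replicate 1, which held most of the reads, it was 49.8-fold above that limit. The limit covers counting error only and not the spread between mice, which includes 0 counts in a WT sample. DESeq2 gave a log2 fold change of -7.89 and an adjusted p of 0.00341. In edgeR the gene did not pass the filter on low counts, and without that filter the adjusted p was 0.281. Of its windows, 77.9% are unique.

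*Hist2h2be* (ENSMUSG00000068854.7), an H2B gene on chromosome 3 that was chosen after its values were seen, showed the opposite direction. It had 0, 2, 4, 24, 0 and 31 counts in WT replicates and 0, 0, 702, 128, 437 and 512 counts in Pon2-/- replicates. The Pon2-/- samples split into 2 samples at 0 and 4 samples above all WT samples. The log2 fold change was 4.62 (standard error 1.96), which did not pass the test (edgeR unadjusted p = 0.0342, adjusted p = 1.0, DESeq2 adjusted p = 0.233). All of its windows are unique.

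*Hist1h2ah*, an H2A gene also chosen after its values were seen, had 23, 27, 65, 5, 12 and 8 counts in WT replicates and 7, 0, 0, 0, 0 and 0 counts in Pon2-/- replicates. The ranges overlapped through Pon2-/- replicate 1. It was too low for the edgeR test, DESeq2 gave an adjusted p of 0.261, and 7.87% of its windows are unique. Besides *Hist1h4m* and *Hist3h2ba*, 3 histone genes had counts in a single genotype. *Hist2h2ab* and *Hist3h2bb-ps* had 26 and 17 counts in WT samples only, in 2 samples each, and *Hist2h3c2* had 86 counts, all in Pon2-/- replicate 5. How many of all genes had counts in a single genotype was not determined, so nothing is drawn from their number. Counts in all 6 WT samples and in no Pon2-/- sample, as in *Hist1h4m*, were found for 9 of the 25444 genes with a count.

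Genes that act on histone mRNA were examined with a list of 20 factors. Of these, 18 were tested and 0 were called by edgeR, and DESeq2 called 0 as well. Over all genes, edgeR called 0.203% and DESeq2 1.79%, so that 0 calls in so short a list say little about it. The median log2 fold change was -0.07. *Slbp*, which binds the stem-loop, had 274 ± 48.5 CPM in WT samples and 272 ± 86.3 CPM in Pon2-/- samples (SD, n = 6 each). *Cpsf3*, the nuclease that cuts histone pre-mRNA, had 156 ± 31.0 and 176 ± 44.3 CPM. *Srrt*, a partner of the cap-binding complex, had 119 ± 42.6 and 120 ± 38.6 CPM. The only factor with an unadjusted p below 0.05, found for 3.13% of all tested genes, was *Cstf2*, a subunit of the cleavage stimulation factor. Its log2 fold change was 1.03 (standard error 0.40, edgeR unadjusted p = 0.0236), and it was named here after its values were seen. *Lsm11*, a subunit of the U7 snRNP, and *Zfp473*, which binds it, had too few counts for the test.

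The replication-independent histone genes have polyadenylated mRNA, most of them throughout the cell cycle, and were examined as 13 genes. They had 4259 CPM in sum on average, compared with 1361 CPM for the 68 replication-dependent genes. These sums do not compare expression, since replication-dependent mRNA without a poly(A) tail and reads from shared stretches are largely missed. Of these 13 genes, 11 were tested and 0 were called by edgeR or DESeq2, compared with 0.203% and 1.79% of all genes. The median log2 fold change was 0.06. *H3f3b*, which encodes the variant H3.3, had 1875 ± 282 CPM in WT samples and 1881 ± 453 CPM in Pon2-/- samples (SD, n = 6 each). *H2afz*, which encodes H2A.Z, had 628 ± 160 and 617 ± 182 CPM, and *H2afv* had 487 ± 105 and 506 ± 120 CPM. Per kilobase of exon, *H3f3b* had 631 CPM and *H2afz* 350 CPM, so that *Hist1h4d* lay between them. *H2afj*, named after its values were seen, was the only 1 of them with an unadjusted p below 0.05, compared with 3.13% of all tested genes. Its log2 fold change was 0.52 (standard error 0.19, edgeR unadjusted p = 0.0160).

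Genes expressed in S phase were examined with a list of 22 genes, since histone mRNA normally follows DNA replication. All 22 were tested and 0 were called by edgeR or DESeq2, compared with 0.203% and 1.79% of all genes. The median log2 fold change was 0.12. *Mcm6* and *Mcm3*, subunits of the replicative helicase, had 462 ± 82.2 and 331 ± 43.6 CPM in WT and 420 ± 86.4 and 324 ± 120 CPM in Pon2-/- samples (SD, n = 6 each). *Top2a*, a topoisomerase of proliferating cells, had 278 ± 53.6 CPM in WT samples and 301 ± 127 CPM in Pon2-/- samples. *Mcm5* had an unadjusted p of 0.0287 (edgeR, log2 fold change 0.54, standard error 0.22) and was named after its values were seen. An unadjusted p below 0.05 was found for 3.13% of all tested genes. The sum over the list was 2888 to 3633 CPM in WT samples and 2581 to 4162 CPM in Pon2-/- samples. Pon2-/- replicate 5 had the highest sum of both S-phase genes and histone genes, whereas Pon2-/- replicate 3, lowest for histone genes, had 3645 CPM of S-phase genes. On average the sum over the list was 3315 CPM in WT and 3546 CPM in Pon2-/- samples. The share of cells in S phase and the histone RNA per cell cannot be told apart in pooled cells, and neither was tested.

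Markers of cells outside the gate were mostly low but not evenly spread. The 7 genes of this list (*Flt3*, *Cd3e*, *Cd4*, *Cd8a*, *Ms4a1*, *Itgam* and *Ly6g*) had 10.5 to 74.1 CPM in sum in WT and 35.1 to 170.8 CPM in Pon2-/- HSCs. *Flt3*, the gene of CD135, had 39.4 CPM on average, above the HSC marker *Fgd5* with 34.4 CPM. The other genes of the list had 0 to 9.27 CPM on average, with *Ms4a1* reaching 88.1 CPM in a Pon2-/- sample. Of these 7 genes, 3 were tested by edgeR, with 0 called and 0 at an unadjusted p below 0.05. DESeq2, which called 1.79% of all genes, called 1 of them, *Cd4*. This gene had no count in WT samples and 0 to 6.18 CPM in Pon2-/- samples. The 3 erythroid markers had 0 to 24.7 CPM in WT samples and 5.69 to 45.6 CPM in Pon2-/- samples, and the 3 megakaryocyte markers 130 to 184 and 75.6 to 188 CPM. Their part in the histone values was not tested.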

How the data were processed

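RNA-seq counts of HSCs from 6 WT and 6 Pon2-/- mice were used as deposited. Libraries were made with Smart-seq2. The authors used Trimmomatic 0.36 for adapters and STAR 2.5.3a for mapping (GRCm38.p5, GENCODE M12) and for counting, so that the deposited values are whole-number counts per gene without normalization or filter. STAR counts uniquely mapped reads only, here without regard to strand. Names, exon lengths and transcript sequences were taken from GENCODE M21 (GRCm38). All members and lists were chosen with earlier results of these data known.

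Counts were analysed in R 4.3.3 with edgeR 4.0.16 (TMM, filterByExpr, glmQLFit, glmQLFTest, genotype only) and tested on simulated data. DESeq2 1.42.0 and limma 3.58.1 were alternatives. Log2 CPM used a prior count of 2. Samples were grouped by their labels, each being 1 mouse. Named were *Hist1h4m* and genes near-identical to it, the 12 members with the highest mean CPM, members called or without overlap, and from each other list genes called and the 3 highest. *Zcchc6*, *Zcchc11*, *Papd4* and *Papd5* were matched as *Tut7*, *Tut4*, *Tent2* and *Tent4b*. Samples with the same replicate number were not treated as pairs, since the correlations of their deviations from the genotype means were 0.00108 to 0.0431. Further genes of the marker lists are not reported here.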

Additional observations from a re-analysis of the deposited data

Results flagged for a closer look

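In 5 of 32 groups of 6 samples examined, the highest sample stood apart by Dixon's criterion for 6 samples. The criterion was a gap of more than 0.625 of the whole range. Its rate of about 1 in 20 groups holds for independent groups with normally distributed values. The groups here reuse the same mice and hold CPM without log scale, so an excess over that rate was not tested. Of the 5 values set apart, 4 are from Pon2-/- replicate 5. This replicate had 294.6 CPM of *Hist1h1b*, with the next sample at 149.1 CPM. It had 112.9 CPM of *Hist1h2ab*, with the next at 36.66 CPM, and 90.37 CPM of *Hist2h2ac*, with the next at 30.8 CPM. For *Hist1h4n* it had 13.13 CPM, with the next at 3.726 CPM. This sample also had the lowest *Pon2* level (1.15 CPM) and the highest S-phase sum (4162 CPM). The fifth is WT replicate 4, with 169.8 CPM of *Hist1h1c* and the next sample at 72.95 CPM, and this library had the lowest total count (12967791).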

How the results depend on the processing

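With no filter beyond 1 read and with a replicate block, 0 histone genes were called, and with DESeq2 at default settings or without Cook's cutoff 2 were called. The call of *Hist1h4m* was lost with no filter (log2 fold change -8.39, adjusted p = 0.281) and with the replicate block (-8.25, adjusted p = 0.684), in which 5 instead of 24 genes were called in all. No filter left 8 genes called, DESeq2 305, and DESeq2 without Cook's cutoff 950. With each sample left out, *Hist1h4m* stayed between -8.57 and -8.22 (adjusted p 0.0073 to 0.0146). Merged with *Hist1h4n*, added after seeing the data, its direction turned (0.29, adjusted p = 1.0). The block changed no call in the lists of processing factors, replication-independent histone genes and S-phase genes, with 0 calls in each. None of these causes was tested.

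Instead of 37 genes at 1 CPM in 6 samples, 59 had 1 count in 1 sample, 20 had 5 CPM in 6 samples and 18 had 10 counts in every sample.

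Log2 fold changes near 0 turned their sign in some fits. *Hist1h4d* was at -0.0572 with the replicate block and *Hist1h1c* at 0.0936 with voom. Leaving out single samples gave -0.185 to 0.0936 for *Hist1h4d*, -0.357 to 0.0772 for *Hist1h1b*, -0.328 to 0.102 for *Hist1h1e*, -0.398 to 0.306 for *Hist1h1c*, -0.731 to 0.0791 for *Hist2h2ac* and -0.0701 to 0.312 for *Hist1h4c*. None of these 6 genes was called in any fit. The lists of processing factors, replication-independent histone genes and S-phase genes had 0 calls in every fit. Depth limits a gene without counts in a sample to 0.12 to 0.232 CPM.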
